A study of Bos taurus with 44 samples.

Results

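The CD3 chains are the signalling part of the T cell receptor, and their 4 genes, CD3D, CD3E, CD3G and CD247, are 4 of the 141 genes that a bovine cDNA array measured in blood mononuclear cells of Holstein cows. The genes were chosen from earlier results of these data, in which their ratios were higher in high than in low responders, so the high-minus-low differences below are a description and carry no test. Each gene had 8 spots, which made 32 of the 1680 spots of the table, and all 4 genes had a value in each of the 11 cows. Of 1408 readings of these spots over 44 arrays, 1 was missing.

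All cows were Holstein cows immunized with antigens that provoke antibody and cell-mediated responses, and blood was taken 6 days later. Their mononuclear cells came from a Percoll gradient and received no further treatment. In the label groups, 1 cow was high for both antibody (Ab) and cell-mediated (DTH) responses (4 arrays), 2 further cows were high-Ab (8 arrays), 3 were low-Ab (12 arrays), 2 further cows were high-DTH (9 arrays) and 3 were low-DTH (11 arrays). The labels give no age and no identity of the animals, so cows of different groups were taken as different animals. Each array compared the RNA of 1 cow with a common RNA standard, which was also made from blood mononuclear cells.

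The T cell receptor recognises antigen with its variable chains but has no signalling tail of its own. CD3 epsilon (CD3E) forms one dimer with CD3 delta (CD3D) and another with CD3 gamma (CD3G), and CD3 zeta (CD247) joins as a dimer with itself. Tyrosine motifs in the tails of these chains are phosphorylated on recognition and recruit the kinase ZAP70. CD3D, CD3E and CD3G are markers of T cells, whereas CD247 also serves Fc and activating receptors in natural killer cells. In the bovine RefSeq annotation (ARS-UCD2.0), where 4 of 4 symbols matched, CD3E, CD3D and CD3G are next to each other in that order, and CD247 is on another chromosome.

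Every value is a deposited log ratio of cow over standard, read as log2, averaged over the spots of a gene, then over the arrays of a cow with equal weight for both dye orientations. The direction is likely but not stated in the labels, so all signs would turn together under the opposite reading. Since cow and standard are the same kind of cell, a ratio says how a cow differs from the standard, not how much of a transcript is present, and the presence of T cells could not be checked from it. In bulk RNA, fewer T cells and less CD3 RNA per T cell cannot be told apart. Array medians lay between −0.08 and 0.07 and the SD over the spots of an array between 0.29 and 0.81. For low-Ab cow 1, arrays 1 and 2 ran against the rest, and so did array 3 of low-DTH cow 3: their mean correlation with arrays of other cows was −0.23 to −0.20, against at least 0.05 for every other array. They are kept as deposited, and the differences of the CD3 chains are also given with the signs of these 3 arrays turned.

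CD3D, the delta chain, had its highest ratio in the cow high for both traits, at 1.22. In the other cows of the antibody arms, its ratios were 0.59 and 0.56 in high-Ab cows, against −0.08, 0.30 and 0.29 in low-Ab cows. In the cell-mediated arms, its ratios were 0.90 and 0.97 in high-DTH cows, against 0.44, 0.31 and 0.30 in low-DTH cows. All 5 high cows stood above all 6 low cows. With the 3 arrays turned, low-Ab cow 1 had 0.35 and low-DTH cow 3 had 0.77, which is above both high-Ab cows, so the ranges then overlapped. By group mean, the order was the cow high for both traits, high-DTH (0.93), high-Ab (0.57), low-DTH (0.35) and low-Ab (0.17). Neighbouring groups in this order did not overlap as deposited, but the groups are small. Between high-DTH and high-Ab cows 48.2% of all genes had no overlap, and between low-DTH and low-Ab cows 13.5%. No share was counted for high-Ab against low-DTH cows. The lowest low-DTH cow was at 0.301 and the highest low-Ab cow at 0.296.

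CD3E, the epsilon chain shared by both dimers, had ratios of 1.08 in the cow high for both traits and 0.60 and 0.39 in high-Ab cows, against −0.01, 0.41 and 0.43 in low-Ab cows. High-DTH cows had 0.68 and 0.68, against 0.66, 0.24 and 0.49 in low-DTH cows. In the antibody arms the epsilon chain was the only one to overlap: high-Ab cow 3 was below low-Ab cows 2 and 3, and low-DTH cow 1 was nearly level with the high-DTH cows. Once the 3 arrays were turned, low-Ab cow 1 had 0.41 and low-DTH cow 3 had 0.93, which is above both high-DTH cows. By group mean, the order was the cow high for both traits, high-DTH (0.68), high-Ab (0.50), low-DTH (0.46) and low-Ab (0.28). The ranges of high-Ab and low-DTH cows overlapped, as did those of low-DTH and low-Ab cows, and with the arrays turned the low-DTH mean (0.61) stood above the high-Ab mean.

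CD3G, the gamma chain, had ratios of 0.96 in the cow high for both traits and 0.48 and 0.43 in high-Ab cows, against −0.11, 0.18 and 0.22 in low-Ab cows. High-DTH cows had 0.91 and 0.51, against 0.26, 0.06 and 0.38 in low-DTH cows. As for the delta chain, all 5 high cows were above all 6 low cows. Turning the 3 arrays put low-Ab cow 1 at 0.19 and low-DTH cow 3 at 0.63, which is above 3 of the 5 high cows. The group means were 0.71 in high-DTH, 0.46 in high-Ab, 0.24 in low-DTH and 0.10 in low-Ab cows, below the cow high for both traits. In this order only the low-DTH and low-Ab ranges overlapped, but 48.2% of all genes had no overlap between the small high-DTH and high-Ab groups. No share was counted for high-Ab against low-DTH cows.

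CD247, the zeta chain, had ratios of 0.73 in the cow high for both traits and 0.75 and 0.47 in high-Ab cows, against −0.03, 0.16 and 0.05 in low-Ab cows. High-DTH cows had 0.45 and 0.19, against −0.11, −0.39 and 0.87 in low-DTH cows. Here the antibody arms were far apart, while low-DTH cow 3 held the highest CD247 ratio of all 11 cows. That ratio was 0.84 with its array 3 turned, and low-Ab cow 1 then had 0.39. Low-DTH cows averaged 0.12 ± 0.66 (SD, n = 3), the widest group for any of the 4 genes. The order of the group means also differed from that of the other chains: high-Ab (0.61) came before high-DTH (0.32), low-DTH (0.12) and low-Ab (0.06). The cow high for both traits lay within the high-Ab range, and the low-DTH range overlapped those of high-DTH and low-Ab cows.

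**Figure D1:**
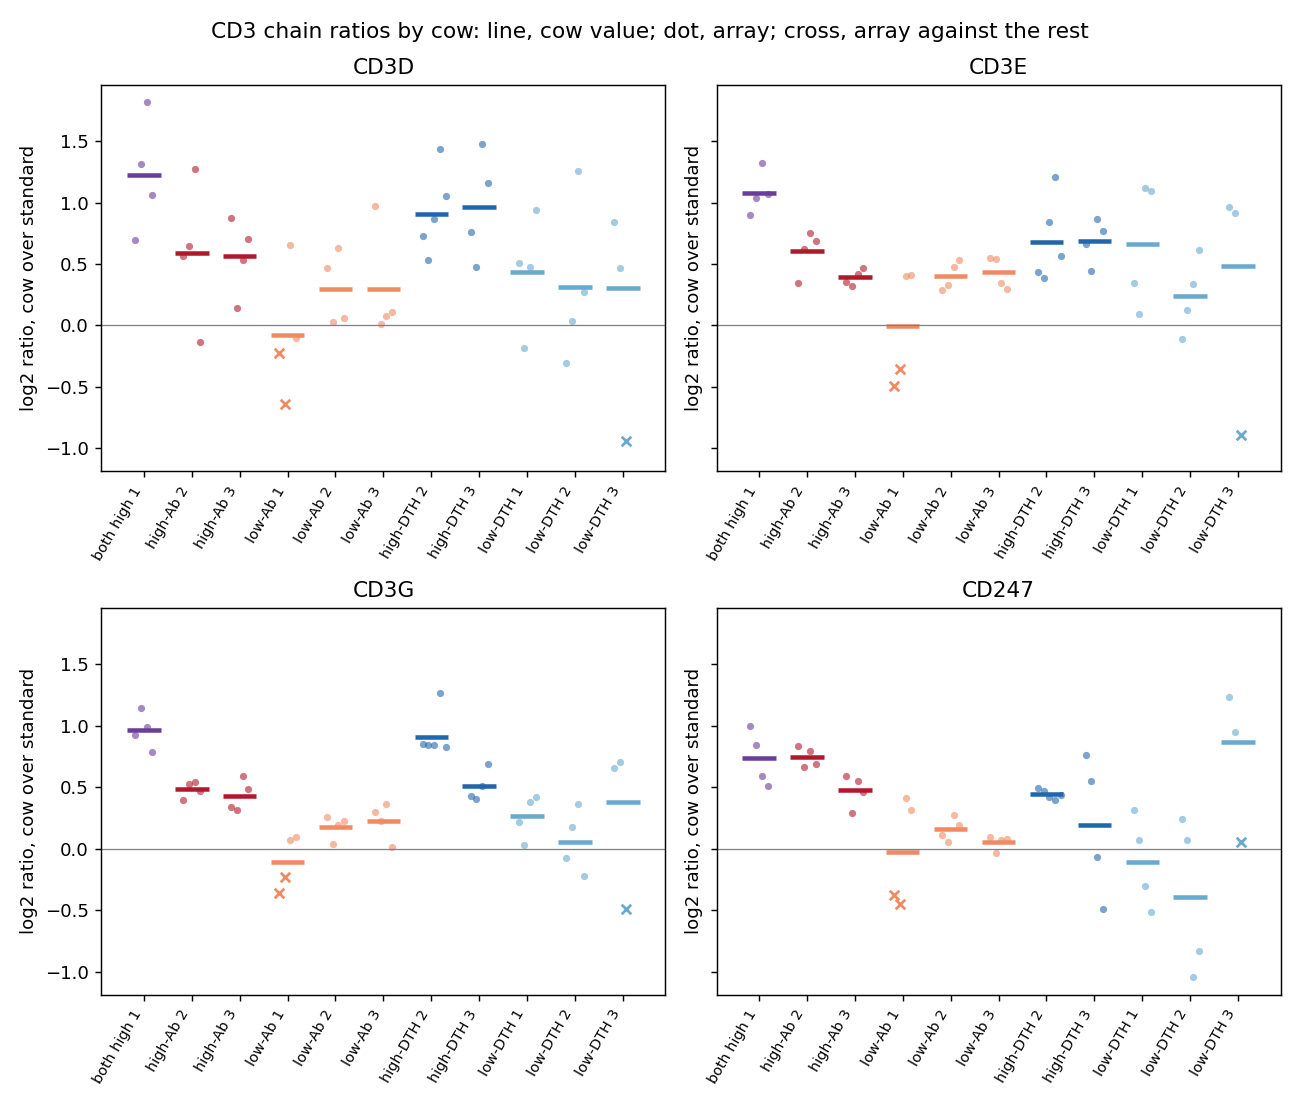
Log2 ratio of cow over standard for each CD3 chain (y axis) in each of the 11 cows (x axis, coloured by label group). Horizontal lines are cow values, dots are arrays and crosses are the 3 arrays that ran against the rest. CD3D and CD3G lines of the high cows are all above those of the low cows, whereas CD247 is highest in low-DTH cow 3 (0.87).

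Over all cows, the mean ratio was 0.53 ± 0.37 for CD3D, 0.51 ± 0.28 for CD3E, 0.39 ± 0.33 for CD3G and 0.29 ± 0.40 for CD247 (SD, n = 11). Ranked by mean ratio to the standard among the 141 genes, these ranked 2, 3, 4 and 7 from the top, and the median over genes was 0.01. The first 3 chains were above the standard in 10 of 11 cows each, the exception being low-Ab cow 1, and CD247 was above it in 8. All 4 genes ranged widely over cows, by 1.30 for CD3D, 1.09 for CD3E, 1.07 for CD3G and 1.26 for CD247, against a median range of 0.46 over genes. With the 3 arrays turned, low-Ab cow 1 was above the standard too. Cows then ran from 0.29 to 1.22 for CD3D, 0.24 to 1.08 for CD3E, 0.06 to 0.96 for CD3G and −0.39 to 0.84 for CD247. The bacterial control gene vapA averaged 0.03 ± 0.09 (SD, n = 11).

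The antibody comparison set the 3 high-Ab cows, the cow high for both traits included, against the 3 low-Ab cows. CD3D averaged 0.79 ± 0.37 in the high-Ab arm and 0.17 ± 0.22 in the low-Ab arm (SD, n = 3 each), a difference of 0.62 ± 0.21 (SE), or 1.54-fold. CD3G averaged 0.63 ± 0.29 in the high-Ab arm and 0.10 ± 0.18 in the low-Ab arm, a difference of 0.53 ± 0.18. CD247 averaged 0.65 ± 0.15 in the high-Ab arm and 0.06 ± 0.09 in the low-Ab arm, a difference of 0.59 ± 0.11 and the most even one of the 4. For CD3E, the averages were 0.69 ± 0.35 in the high-Ab arm and 0.28 ± 0.25 in the low-Ab arm, a difference of 0.41 ± 0.21. The pooled SD between cows was 0.304 for CD3E, as for CD3D. High-Ab cows did not overlap low-Ab cows for 3 of the 4 chains, CD3E being the exception, where 4.96% of all 141 genes were higher without overlap. With the 3 arrays turned, the differences were 0.48 ± 0.19 for CD3D, 0.27 ± 0.18 for CD3E, 0.43 ± 0.15 for CD3G and 0.45 ± 0.13 for CD247. The same 3 chains were without overlap, against 7.09% of all genes. Without the cow high for both traits, the difference was 0.40 for CD3D and 0.22 for CD3E, and without low-Ab cow 1 that of CD3E was 0.27.

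The cell-mediated comparison set 3 high-DTH cows, again with the cow high for both traits, against 3 low-DTH cows, and so shares that cow with the antibody comparison. CD3D averaged 1.03 ± 0.17 in the high-DTH arm and 0.35 ± 0.07 in the low-DTH arm (SD, n = 3 each), a difference of 0.68 ± 0.11 (SE), or 1.60-fold. CD3G averaged 0.79 ± 0.25 in the high-DTH arm and 0.24 ± 0.16 in the low-DTH arm, a difference of 0.56 ± 0.16. CD3E averaged 0.81 ± 0.23 in the high-DTH arm and 0.46 ± 0.21 in the low-DTH arm, a difference of 0.35 ± 0.16. These 3 chains were higher without overlap, where 8.51% of all 141 genes were. CD247 averaged 0.46 ± 0.27 in the high-DTH arm and 0.12 ± 0.66 in the low-DTH arm, and its difference of 0.33 ± 0.34 was no larger than its error. Leaving out low-DTH cow 3 gave 0.71 for CD247, whereas leaving out low-DTH cow 2 gave 0.08, low-DTH cow 1 gave 0.22 and the cow high for both traits gave 0.20. For CD3E, the difference was 0.22 without the cow high for both traits.

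Of the 3 arrays that ran against the rest, 1 belongs to the cell-mediated comparison, array 3 of low-DTH cow 3. With it turned, the differences were 0.52 ± 0.15 for CD3D, 0.20 ± 0.21 for CD3E, 0.48 ± 0.19 for CD3G and 0.34 ± 0.34 for CD247. Then 1 chain, CD3D, was without overlap, against 7.09% of all genes. In low-DTH cow 3 itself, CD3D read 0.84 on array 1, 0.47 on array 2 and −0.94 on array 3. CD3E read 0.96, 0.92 and −0.89 on these arrays, close in size but of opposite sign on array 3. CD247 instead read 1.23, 0.95 and 0.06, so that turning the sign of array 3 hardly moved it. Other genes differed too: B2M changed sign, from 0.25 on arrays 1 and 2 to −0.62 on array 3. CD4 (0.27 and 0.33) and BOLA-DMA (−0.42 and −0.33) kept theirs. Whether the sign of array 3 is reversed was not tested. Every cow and group value of this animal rests on that array for its dye orientation together with array 2.

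Over all responders, with each cow counted once, CD3D averaged 0.85 ± 0.28 in 5 high cows and 0.26 ± 0.17 in 6 low cows (SD), a difference of 0.59 ± 0.13 (SE). CD3G averaged 0.66 ± 0.26 in high and 0.17 ± 0.17 in low cows, a difference of 0.49 ± 0.12. These 2 chains had no overlap, and they were the only 2 of 141 genes higher without overlap (1.42%). They were chosen from results in which their ratios were higher in high cows, so this count gives no independent support. CD247 averaged 0.52 ± 0.23 in high and 0.09 ± 0.42 in low cows, a difference of 0.43 ± 0.19. CD3E averaged 0.69 ± 0.25 in high and 0.37 ± 0.23 in low cows, a difference of 0.32 ± 0.14. With the 3 arrays turned, the differences were 0.44 ± 0.13 for CD3D, 0.17 ± 0.14 for CD3E, 0.40 ± 0.13 for CD3G and 0.36 ± 0.20 for CD247, and no gene of the array was higher without overlap (0%). The direction of each high-minus-low difference of each chain was the same under every alternative run. These runs reuse the cows from which the genes were chosen, so the steady direction is no independent support. Over all features, limma made 0 calls of 562 for antibody, 0 of 565 for cell-mediated and 0 of 561 for all responders at an adjusted p of 0.05 (0% each), with 37, 55 and 20 features at an unadjusted p under 0.05. Without the cow high for both traits, 1 feature was called for antibody.

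**Figure D2:**
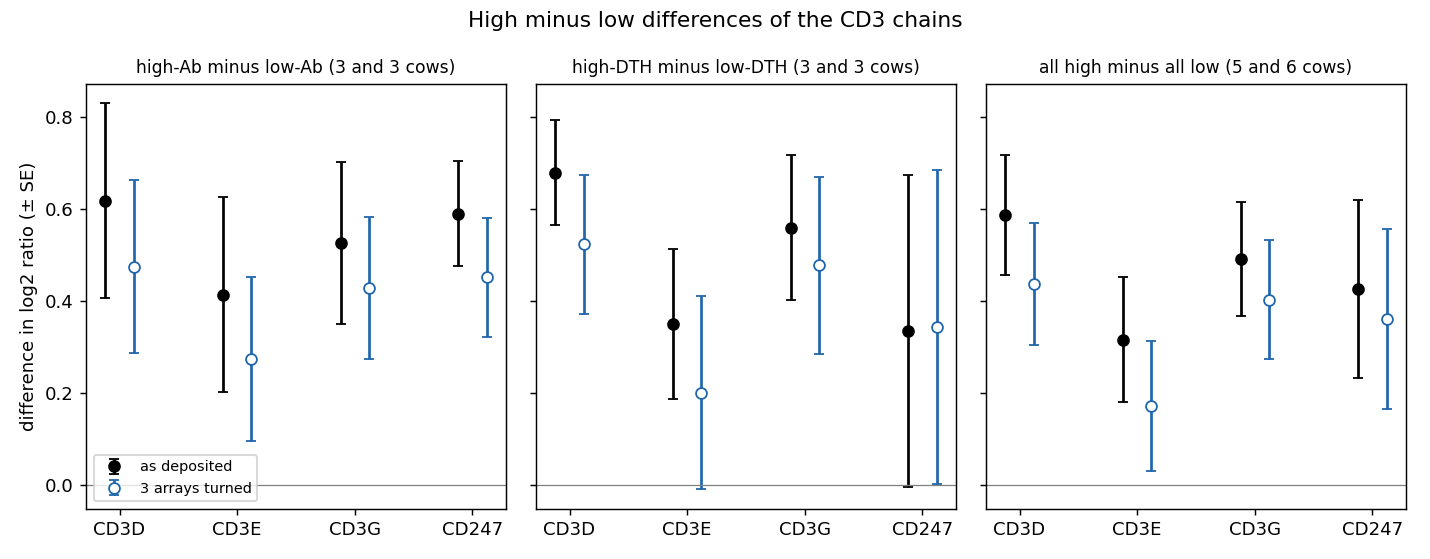
High minus low difference in log2 ratio for each CD3 chain, with SE bars, in the antibody (left), cell-mediated (middle) and all-responder (right) comparison. Filled points are as deposited and open points have the signs of 3 arrays turned. All points are above 0, and the CD247 bars of the cell-mediated comparison (0.33 ± 0.34 as deposited) are the widest.

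3 contrasts between traits were tested with limma in 1 fit of 11 cows, with Benjamini-Hochberg adjustment over all 561 features. Those between the low groups and between the high groups were not used to choose the genes. The antibody effect minus the cell-mediated effect is built from the high-minus-low differences known when the genes were chosen. It is therefore no independent test. Low-Ab and low-DTH cows had averages given above, and the differences, low-Ab minus low-DTH, were −0.18 ± 0.12 (SE) for CD3D (adjusted p = 0.755), −0.19 ± 0.15 for CD3E (adjusted p = 0.844), −0.14 ± 0.14 for CD3G (adjusted p = 0.844) and −0.06 ± 0.28 for CD247 (adjusted p = 0.980). None of the 4 passed, where 0.535% of all features did. CD3D was the only chain without overlap between the low groups, where 13.5% of all genes had no overlap, and it overlapped with the 3 arrays turned. For CD3D, the 95% interval ran from −0.44 to 0.08, so it includes 0. The CD247 interval, from −0.70 to 0.58, was wider than any high-minus-low difference of that gene, and its difference was 0.09 with the 3 arrays turned. The other chains then had −0.19 (CD3D), −0.20 (CD3E) and −0.12 (CD3G). Without low-Ab cow 1, they had −0.06, −0.05 and −0.03.

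High-Ab cows 2 and 3 were set against high-DTH cows 2 and 3, which leaves the cow high for both traits out of both arms. CD3D was 0.57 ± 0.02 in high-Ab and 0.93 ± 0.05 in high-DTH cows (SD, n = 2 each), a difference of −0.36 ± 0.14 (SE) with a 95% interval of −0.68 to −0.04 and a limma adjusted p of 0.371. CD3E differed by −0.18 ± 0.19 (adjusted p = 0.698) and CD3G by −0.25 ± 0.18 (adjusted p = 0.605). CD247 went the other way, at 0.61 ± 0.19 in high-Ab and 0.32 ± 0.18 in high-DTH cows, a difference of 0.29 ± 0.35 (adjusted p = 0.749). On arrays 1 and 2 only, the difference was −0.07 for CD3D, −0.07 for CD3E and 0.03 for CD247, and on arrays 3 to 5 only it was −0.59, −0.25 and 0.55. The CD3G difference was −0.46 without high-DTH cow 3 and −0.05 without high-DTH cow 2, and that of CD3E was −0.29 without high-Ab cow 2 and −0.08 without high-Ab cow 3. CD247 had 0.16 without high-Ab cow 2. None of the 3 arrays that ran against the rest is in either arm. No feature passed in this contrast (0%), with 58 at an unadjusted p under 0.05. In these groups of 2 cows, 48.2% of all genes, and all 4 CD3 chains, had no overlap here.

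The antibody effect minus the cell-mediated effect was −0.06 ± 0.15 (SE) for CD3D (limma adjusted p = 0.891), 0.06 ± 0.20 for CD3E (adjusted p = 0.918) and −0.03 ± 0.19 for CD3G (adjusted p = 0.940). For CD247, it was 0.26 ± 0.36 (adjusted p = 0.882), with a 95% interval of −0.58 to 1.09. None of the 4 passed, where 1.25% of all features did. Since this contrast is built from the differences known when the genes were chosen, no conclusion is drawn from its p-values. The 95% intervals were −0.40 to 0.28 for CD3D, −0.38 to 0.51 for CD3E and −0.46 to 0.39 for CD3G, and the one for CD3E includes values larger than its effect in either trait. With the 3 arrays turned, the differences were −0.05 for CD3D, 0.07 for CD3E, −0.05 for CD3G and 0.11 for CD247.

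The arrays of a cow fell into arrays 1 and 2 and arrays 3 to 5 of the label numbers, and CD247 parted from the other chains on the later arrays of the cell-mediated arms. Its ratio minus the mean of CD3D, CD3E and CD3G compares changes against the standard, not levels. On arrays 1 and 2 this gap lay between −0.15 and 0.33 in the 5 high-DTH and low-DTH cows and between −0.40 and 0.24 in the 5 high-Ab and low-Ab cows. On arrays 3 to 5 it was −0.54 and −1.19 in high-DTH cows 2 and 3, against −1.15 and −1.37 in low-DTH cows 1 and 2. In the cow high for both traits it was −0.62. Low-DTH cow 3 had 0.83 on its only later array, which becomes −0.83 with that array turned. The high-Ab and low-Ab cows showed no such gap there, with −0.12 to 0.14.

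Most of this gap came from opposite shifts of single chains. In the 4 cows of the cell-mediated arms other than low-DTH cow 3 and the cow high for both traits, CD247 was 0.67 ± 0.45 (SD) lower on the later than on the earlier arrays, a shift of −0.67 that was the sixth lowest of 140 genes. CD3D shifted by 0.64 ± 0.20, the eighth highest, CD3E by 0.52 ± 0.26 and CD3G by 0.15 ± 0.11. In the 4 antibody cows other than low-Ab cow 1, the shifts were 0.06 for CD247, −0.06 for CD3D, 0.08 for CD3E and 0.06 for CD3G. Other genes shifted as much in the same 4 cell-mediated cows: IGHM, the heavy chain of immunoglobulin M, by 1.51, the housekeeping genes GAPDH by 1.07 and ACTB by 0.68, and the caspase gene CASP1 by −0.98. The median absolute shift over genes was 0.144 in the cell-mediated cows and 0.0725 in the antibody cows. What the array numbers stand for is not in the labels, and the part of these shifts in the CD3 results was not tested beyond the values of each array set.

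**Figure D3:**
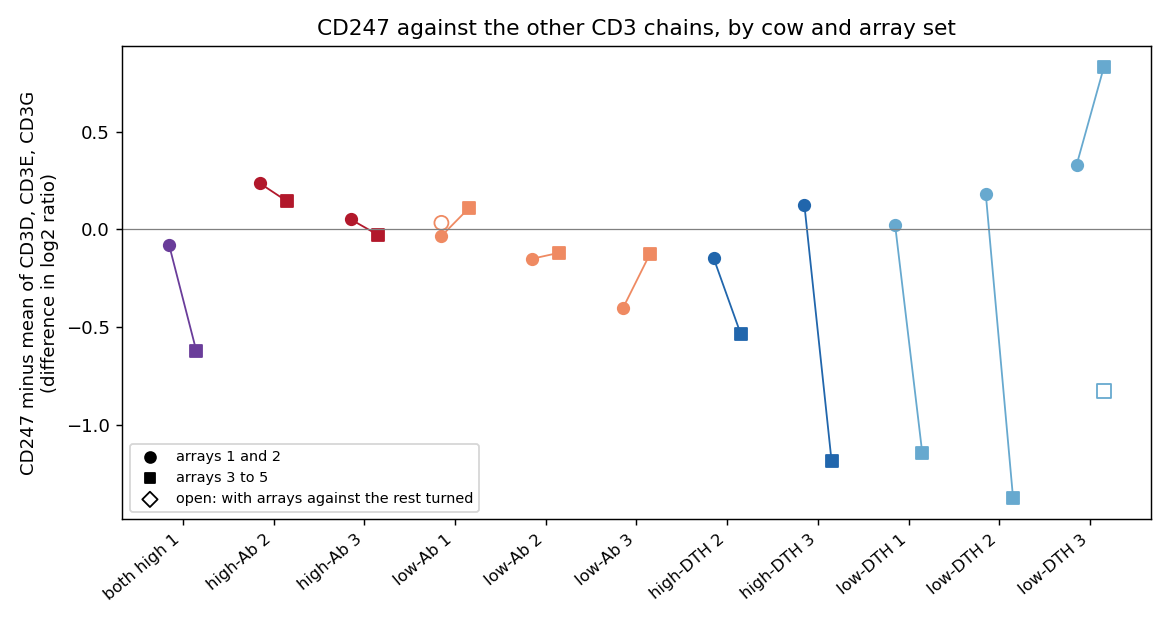
CD247 minus the mean of CD3D, CD3E and CD3G, as a difference in log2 ratio (y axis), in each cow (x axis) on arrays 1 and 2 (circles) and arrays 3 to 5 (squares), with open symbols for values with the arrays against the rest turned. The gap falls as low as −1.37 on the later arrays of the cell-mediated arms and stays between −0.12 and 0.14 on those of high-Ab and low-Ab cows.

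Within each array set the high cows still had the higher mean ratio for every chain. The antibody difference of CD247 was 0.81 on arrays 1 and 2 and 0.37 on arrays 3 to 5. The cell-mediated difference was 0.52 and 1.09 for CD3D on the earlier and later arrays, 0.25 and 0.73 for CD3E, 0.48 and 0.82 for CD3G, and 0.21 and 0.66 for CD247. For CD3D and CD3E all of the rise on the later arrays, and for CD3G nearly all, but none for CD247, rests on array 3 of low-DTH cow 3. With it turned, the later arrays gave 0.47 for CD3D, 0.13 for CD3E, 0.49 for CD3G and 0.70 for CD247. On arrays 1 and 2 with the arrays of low-Ab cow 1 turned, the antibody difference was 0.31 for CD3D, 0.17 for CD3E, 0.37 for CD3G and 0.53 for CD247.

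Across the 11 cows, CD3D, CD3E and CD3G varied together. Pearson's r was 0.90 between CD3D and CD3E, 0.92 between CD3D and CD3G, and 0.87 between CD3E and CD3G, with Spearman's rho of 0.80, 0.91 and 0.86. These correlations describe 11 cows whose genes share arrays, dyes and the standard. With the 3 arrays turned they were 0.84, 0.92 and 0.82, and without the 2 cows farthest from the median they were 0.81, 0.94 and 0.70. After the group means were taken out, r was 0.84 for CD3D with CD3E, 0.45 for CD3D with CD3G, and 0.65 for CD3E with CD3G.

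CD247 followed them less closely, with r of 0.46 to CD3D, 0.52 to CD3E and 0.67 to CD3G over the 11 cows. On arrays 1 and 2 alone these were 0.84, 0.87 and 0.85, close to the values among the other 3 chains on those arrays (0.86 to 0.93). On arrays 3 to 5 they were −0.01, 0.06 and 0.36, while CD3D, CD3E and CD3G had 0.86 to 0.91 among themselves. Turning the arrays against the rest gave CD247 0.74, 0.79 and 0.77 on arrays 1 and 2 and −0.08, 0.03 and 0.45 on arrays 3 to 5, and gave the other chains 0.79 to 0.88 and 0.71 to 0.78 among themselves. The looser tie of CD247 to the other chains was thus seen on the later arrays. After the group means were taken out, r of CD247 was −0.03 with CD3D, 0.32 with CD3E and 0.63 with CD3G. The last is close to that of CD3E with CD3G (0.65).

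**Figure D4:**
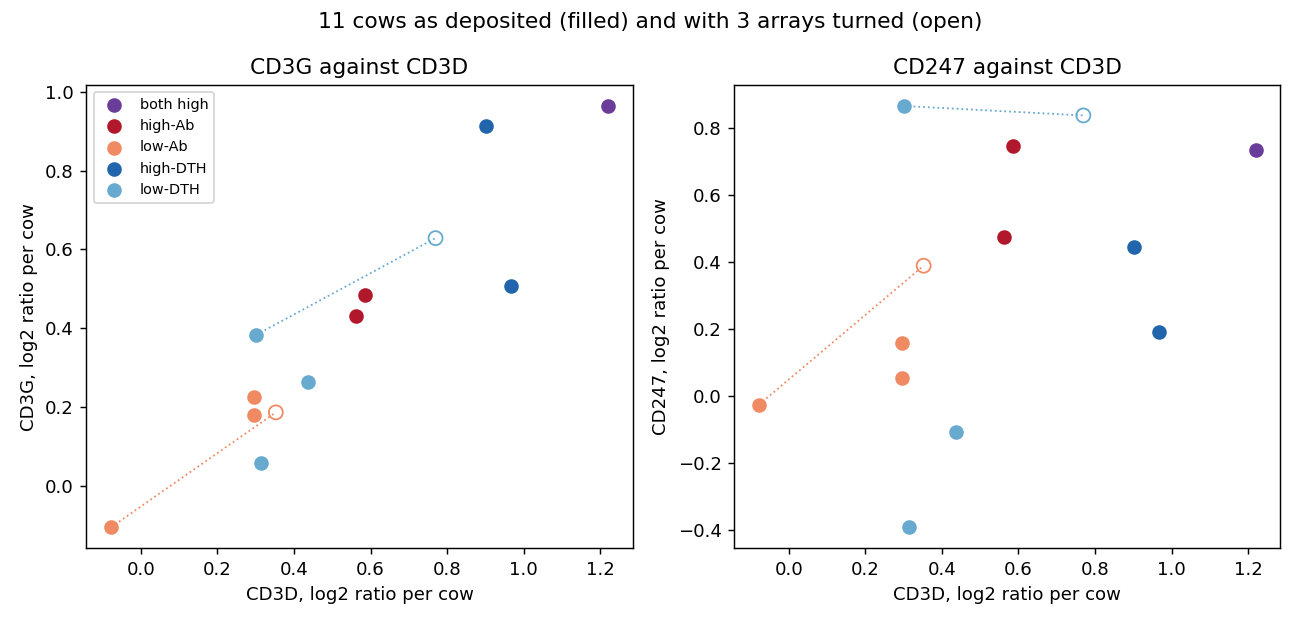
Log2 ratio per cow of CD3G (left) and CD247 (right) against CD3D, coloured by label group, with open circles joined by dotted lines for the cows whose values change when 3 arrays are turned. CD3G rises with CD3D over the 11 cows (r = 0.92), and CD247 scatters more (r = 0.46), with low-DTH cow 3 at its top left.

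The 4 genes differed in how well their values repeated. Over the 8 spots of an array, the SD was 0.18 for CD3D, 0.10 for CD3E, 0.10 for CD3G and 0.09 for CD247, against a median of 0.13 over genes. Over the arrays of a cow, the SD was 0.46 for CD3D, rank 3 of 141 genes from the top, and 0.18, 0.15 and 0.23 for CD3E, CD3G and CD247, where the median gene had 0.18. Part of the CD3D spread went with the dye: its ratio was 0.38 ± 0.34 (SD, n = 11) higher with the cow in Alexa647 than in Alexa555, in 10 of 11 cows. CD247 had a dye difference of 0.18 ± 0.21, also above 0 in 10 cows, while those of CD3E (0.07 ± 0.31) and CD3G (0.08 ± 0.19) were smaller than their spread. Low-DTH cow 3 had the largest dye difference of each chain: 1.07 for CD3D, 0.95 for CD3E, 0.55 for CD3G and 0.73 for CD247. Its Alexa555 value includes the array that ran against the rest, kept as deposited here, so these means and SDs rest partly on that array. The median absolute dye difference over genes was 0.138, and equal weight for both orientations takes this out of a cow's value. Between cows of a group, the pooled SD was 0.13 for CD3D, 0.20 for CD3E, 0.18 for CD3G and 0.40 for CD247, against 0.13 for the median gene. Pooled over the label groups, CD3D thus had the largest SD of the 4 between arrays and the smallest between cows, and CD247 had the largest between cows. The low-DTH group, with an SD of 0.66, carries that of CD247, which in the antibody arms had the smallest pooled SD of the 4 (0.127, against 0.304 for CD3D).

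Among the other 137 named genes, the 6 most like the mean of the CD3 chains over the 11 cows were taken by Pearson's r. IL18, a cytokine that raises interferon production by T and natural killer cells, came first at 0.89, followed by CCR3, a receptor for eotaxins, at 0.80. CD4, the coreceptor of helper T cells, had 0.73, B2M, the light chain of class I histocompatibility molecules, 0.72, and DAXX, a nuclear protein that binds death receptors and histones, 0.72. CD163L1 had 0.70, and in cattle it belongs to the WC1 family that marks gamma delta T cells. The 3 lowest were BOLA-DMA, which helps load peptide onto class II molecules, at −0.74, the transcription factor STAT6, which acts after interleukin 4, at −0.74, and the growth factor receptor gene IGF1R at −0.69. The median r over the 137 genes was −0.05, with 56 above 0.

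Several of these likenesses depended on the arrays. With the 3 arrays turned, r was 0.87 for CD163L1, 0.85 for DAXX, 0.80 for B2M and 0.76 for CCR3, and these 4 of the 6 stayed among the top 6. IL18 had 0.63 and CD4 0.62. On arrays 3 to 5 alone, B2M had 0.88, CD163L1 0.71 and CCR3 0.69, whereas IL18 had −0.07, CD4 −0.01 and DAXX 0.28. Of the lowest 3, BOLA-DMA had −0.74 with the arrays turned but −0.18 on arrays 3 to 5, and IGF1R had −0.36 and 0.34. All values on arrays 3 to 5 keep array 3 of low-DTH cow 3 as deposited, the only later array of that cow. On it, CD3D read −0.94, B2M −0.62, CD163L1 −0.62, CCR3 −0.08, DAXX 0.03, CD4 0.33 and IL18 0.64. Likeness on arrays 3 to 5 with it turned was not tested.

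**Figure D5:**
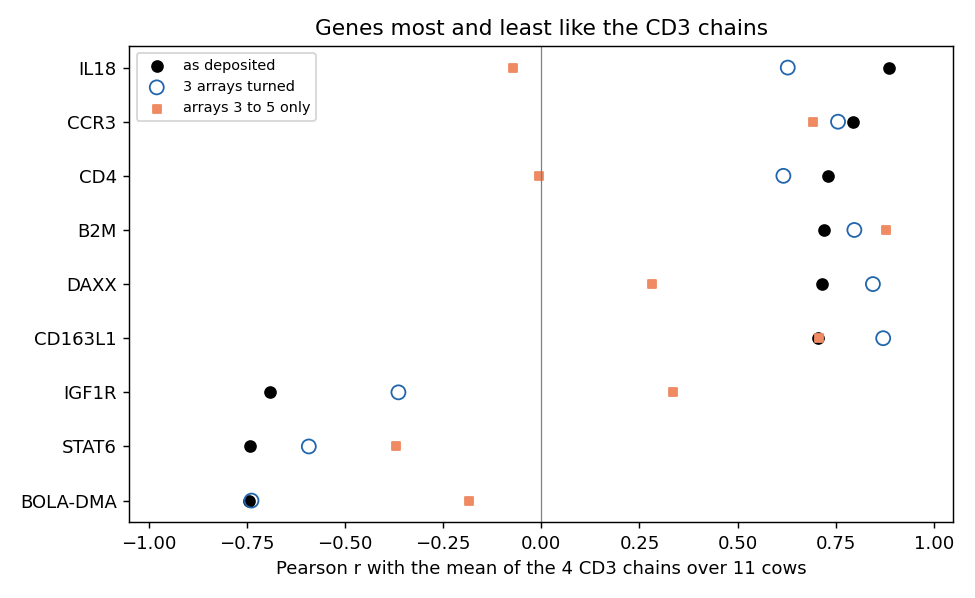
Pearson's r over 11 cows (x axis) between each gene (y axis) and the mean of the 4 CD3 chains, for the 6 highest and 3 lowest genes. Filled circles are as deposited, open circles have 3 arrays turned and squares use arrays 3 to 5 only, as deposited. CCR3, B2M and CD163L1 are above 0.5 in all 3, and IL18 ranges from −0.07 to 0.89.

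The array held few other genes of the T cell receptor pathway. Of 34 listed coreceptor and signalling genes, 4 were measured: CD4, CD163L1, CD5, a surface protein that dampens receptor signalling, and NFATC1, a transcription factor switched on by calcium. None passed in any comparison. For antibody, 4 of 4 were higher, with a median difference of 0.19 (0.16 with the 3 arrays turned), against 64 of 141 genes higher and a median of −0.01 over all genes. The difference was 0.19 ± 0.10 (SE) for CD4, 0.19 ± 0.17 for CD5, 0.76 ± 0.35 for CD163L1 and 0.05 ± 0.10 for NFATC1. For the cell-mediated comparison, 3 of 4 were higher with a median of 0.12 (0.16 turned), against 56 of 141 genes and −0.03, and CD4 was at 0.05 ± 0.11, CD5 at 0.19 ± 0.15 and CD163L1 at 0.45 ± 0.37. Averaged over these 4 genes, the ratio lay between 0.01 and 0.42 in high cows and between −0.13 and 0.30 in low cows. CD163L1 spread most, with 0.98 in the cow high for both traits, 0.46 and −0.34 in high-Ab cows, against −0.04, −0.43 and −0.71 in low-Ab cows. It had 0.26 and 0.09 in high-DTH cows, against −0.48, −0.27 and 0.71 in low-DTH cows, so that low-DTH cow 3 again stood at the top of its group.

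FCER1G encodes the gamma chain of Fc receptors, a relative of CD247 that can take its place in a receptor. Its ratio in the antibody arms was −0.22, −0.55 and −0.36 in high-Ab cows, the cow high for both traits first, against −0.04, 0.24 and −0.11 in low-Ab cows. The difference was −0.40 ± 0.14 (SE) and did not pass. In the cell-mediated arms it was 0.09 and 0.71 in high-DTH cows 2 and 3, against 0.40, 0.46 and −0.69 in the low-DTH arm. This difference was 0.14 ± 0.38. In low-DTH cow 3, the cow with the highest CD247, FCER1G was thus at its lowest. Of 8 listed zeta and gamma chain partners 4 were measured, and for antibody 1 was higher and 3 lower, with a median of −0.12 (−0.21 with the 3 arrays turned). Among all 141 genes, 64 were higher and 77 lower for antibody.

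The costimulation and activation list, measured for 11 of 18 genes, had 3 higher and 8 lower for antibody and 6 higher and 5 lower for the cell-mediated comparison, with medians of −0.02 and 0.01 (−0.09 and 0.03 with the 3 arrays turned, and 8 higher and 3 lower for the cell-mediated comparison). Among all 141 genes, 64 were higher for antibody and 56 for the cell-mediated comparison. CD28, the main costimulatory receptor of T cells and itself a T cell marker, differed by −0.04 ± 0.10 (SE) for antibody and by 0.05 ± 0.08 for the cell-mediated response. CD27, another receptor of resting T cells, had 0.07 ± 0.10 and −0.10 ± 0.10. STAT6 was the only measured gene of 12 T cell transcription factors. CD28 and CD27 thus did not move by the size seen for the CD3 chains. They also ranged little over the 11 cows, by 0.20 and 0.33, where the median gene ranged by 0.46. Whether their spots could show a larger difference was not tested.

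Markers of other blood cells are given beside these results, and their part in the CD3 differences was not tested. Over all 141 genes, 77 were lower for antibody and 85 for the cell-mediated comparison, so counts over a few markers say little alone. Of 11 B cell markers 4 were measured: 1 was higher and 3 were lower for antibody, which became 3 and 1 with the arrays turned, and 4 of 4 were lower for the cell-mediated comparison, with a median of −0.28 (−0.34 turned). IGHM differed by 0.00 ± 0.41 (SE) for antibody and by −0.68 ± 0.58 for the cell-mediated response, and JCHAIN, which joins secreted antibody, by −0.32 ± 0.13 and −0.26 ± 0.16. The mean ratio of these 4 genes lay between −0.44 and 0.06 in high cows and between −0.41 and 0.53 in low cows. Of 11 monocyte markers 5 were measured, with 0 higher for antibody, 3 higher for the cell-mediated comparison, and mean ratios of −0.23 to −0.05 in high and −0.31 to −0.03 in low cows. The defining marker CD14 differed by −0.05 ± 0.10 and 0.09 ± 0.19.

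For natural killer cells, 2 of 9 markers were measured, and both were lower in the antibody and the cell-mediated comparison, with medians of −0.19 and −0.14 (−0.32 and −0.14 with the 3 arrays turned). FCGR3A, the Fc receptor that signals through CD247, differed by −0.23 ± 0.55 (SE) and −0.21 ± 0.31, and the mean ratio of both genes lay between −0.25 and 0.49 in high and between −0.09 and 0.72 in low cows. Of 6 neutrophil markers 2 were measured, with mean ratios of −0.83 to 0.16 in high and −0.16 to 0.67 in low cows. LTF, the lactoferrin gene, was −1.04 ± 0.54 for antibody and −0.04 ± 0.22 for the cell-mediated response. CXCR2, the other measured neutrophil marker, was −0.02 ± 0.10 and 0.03 ± 0.10, so it did not share the antibody difference of LTF. No platelet or red cell marker of 5 was measured. Of 10 housekeeping genes 3 were measured, with medians of 0.10 for antibody and −0.11 for the cell-mediated comparison (0.10 and −0.24 with the 3 arrays turned).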

How the data were processed

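Two-colour spotted cDNA arrays compared blood mononuclear cell RNA of each cow with a common RNA standard, with dyes swapped within cows, per the labels' protocols. The authors deposited a log ratio for each spot of each array, treated here as log2. The sources used here do not give their log base, their direction, the scanner, the background correction or how arrays were normalized. Spot intensities were not analysed here, so precision is known only from the spread between arrays and cows. Spots were named by the platform annotation where it gave a single symbol. The CD3 genes and all gene lists were chosen with earlier results of these data known, and the other named genes are the 6 highest and 3 lowest by r and the measured genes of the lists.

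Spots of a gene were averaged, then arrays within each dye orientation, then both orientations, which gave 1 value per cow. Swapped arrays were taken as already turned. An array was taken to run against the rest where its mean r with arrays of other cows was below 0. Features were tested with limma 3.58.1 in R 4.3.3 (lmFit, eBayes, Benjamini-Hochberg, threshold 0.05), and the script was checked on simulated data. Figures were drawn with matplotlib 3.10.9. P-values rest on the spread between cows. Cow numbers of the labels only name animals: the deviations of cows with the same number correlated at −0.51 to −0.13. No pair of arrays held identical values. Alternatives changed the averaging, arrays, normalization, dye, filter, cows, block and level of replication.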

Additional observations from a re-analysis of the deposited data

Results flagged for a closer look

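Sets of 4 to 6 values were searched for a value standing apart from the others by Dixon's criterion, which chance meets in about 1 in 20 sets. Over 66 sets, 26 of cows and 40 of arrays of a cow, 3 such values were found. CD3D was −0.0775 in low-Ab cow 1, while the other 5 of the 6 low cows lay between 0.29 and 0.44, and 2 arrays of that cow ran against the rest. CD3D was 0.97 on array 1 of low-Ab cow 3, against 0.02 to 0.11 on its other arrays. CD3G was 1.26 on array 4 of high-DTH cow 2, against 0.83 to 0.85 on its other arrays.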

How the results depend on the processing

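The mean high-minus-low difference of the 4 chains was 0.54 for antibody, 0.48 for the cell-mediated comparison and 0.46 for all responders, and it kept its sign in all 20, 20 and 25 alternatives. The genes were chosen from these differences in the same cows, so the kept sign describes the processing and is no independent support. Leaving out 1 cow at a time gave 0.38 to 0.65, 0.36 to 0.59 and 0.38 to 0.51. The cell-mediated value was 0.82 on arrays 3 to 5 only, or 0.45 with array 3 of low-DTH cow 3 turned, and 0.37 on arrays 1 and 2. Features called for antibody numbered 0, and 1 without the cow high for both traits. For the contrasts between traits, no CD3 chain passed under any alternative. Low-Ab minus low-DTH had 3 features called, which became 0 with quantile normalization, arrays 1 and 2 only, arrays 3 to 5 only, Alexa555 only or the cow number as a replicate block, 1 with arrays turned, left out or scaled, Alexa647 only or arrays as observations, and 0 to 4 without 1 cow. High-Ab minus high-DTH had 0, against 8 with arrays as observations and 0 to 1 without 1 cow. The difference of effects had 7, against 4 with the plain mean, 2 with arrays as observations, 0 to 3 without 1 cow, and 0 with arrays turned, left out, quantile normalized or scaled, either array set, either dye or the replicate block. The causes were not tested. Since same-numbered cows share only a number, the replicate block is no paired analysis.

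Signs turned only in contrasts between traits. For low-Ab minus low-DTH, CD247 was 0.0876 with arrays turned, 0.0579 with Alexa555, 0.0212 with arrays as observations and −0.32 to 0.31 without 1 cow, and arrays 3 to 5 gave CD247 0.65, CD3D 0.0604, CD3E 0.18 and CD3G 0.17. For the difference of effects, CD3G was 0.0045 with arrays left out, 0.0891 on arrays 1 and 2, 0.10 with Alexa647 and −0.17 to 0.10 without 1 cow. CD3E was −0.0141 with quantile normalization, −0.0105 scaled, −0.35 on arrays 3 to 5, −0.0607 with Alexa555 and −0.0774 to 0.17 without 1 cow. CD3D was 0.0771 on arrays 1 and 2, 0.0726 with Alexa647 and −0.19 to 0.0018 without 1 cow. CD247 was −0.29 on arrays 3 to 5 and −0.12 to 0.51 without 1 cow. The array sets with arrays turned were added after seeing the data. Precision is limited by 2 or 3 cows per group and trait.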
